A study of Mus musculus with 6 samples.

Results

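Crlf2 is 1 of the 32285 gene identifiers in the deposited matrices, and it was followed through all 6 brain sections of the series, inside and outside the spots richest in myelin transcripts. It was chosen because earlier results of these data showed it rising with age in white matter, so its own levels are given as a description and carry no test. Spots are the capture positions of a Visium slide, each of which collects RNA from a small area that may cover several cells, and cells of more than 1 type. The sections were cut coronally through brains of C57BL/6J males with no transgene or treatment, aged 6 months (young), 18 months (middle) and 21 months (old), with 2 sections per age. The labels give 2 males per age and do not tie a section to an animal, so the spread between 2 sections may be technical in part. Both young sections, middle 1 and old 1 lay on one slide, and middle 2 and old 2 on another.

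Crlf2, cytokine receptor-like factor 2, encodes the receptor chain that binds thymic stromal lymphopoietin (TSLP), a cytokine of epithelial and stromal cells. The chain pairs with the interleukin 7 receptor alpha chain (Il7r), and the pair signals through the kinases Jak1 and Jak2 to STAT transcription factors, Stat5a and Stat5b above all. Outside the brain the receptor is known from dendritic cells, T cells, mast cells, basophils and innate lymphoid cells. White matter consists of bundled axons, oligodendrocytes and their myelin, astrocytes and microglia, with few neuronal cell bodies. In GENCODE M21 (GRCm38) Crlf2 (ENSMUSG00000033467) lies on the minus strand of chromosome 5, from 109554709 to 109558993, with 3 protein-coding transcripts. No annotated gene overlaps it, and the nearest neighbour, the unprocessed pseudogene Gm8493, lies 552 bases downstream on the same strand and was not among the deposited genes.

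Section totals ran from 60938938 to 77557934 UMIs over the kept spots, 16741 spots in all. The myelin share of a spot was the percent of its UMIs from 10 myelin genes, and the 10% of spots with the largest share in each section are called high-myelin spots here. All 20 oligodendrocyte genes that the share did not use (Trf, Sox10, Myrf and others) were higher in them than in the other spots, and all 12 neuronal genes were lower (edgeR quasi-likelihood, Benjamini-Hochberg adjusted p under 0.05), in a comparison that called 73.6% of the 16991 genes tested, 34.4% higher and 39.2% lower. Spots with the same barcode sit at the same array position on each capture area, and 1919 barcodes were shared by all 6 sections. The middle sections stood furthest from the young in this choice of spots, and the old sections lay between the 2. Their high-myelin spots began at a myelin share of 2.81% and 2.40%, against 3.84% and 4.39% in the young and 3.25% and 3.44% in the old sections. The summed level of the 12 neuronal genes in high-myelin spots was 1083 and 1243 counts per 1000000 UMIs (CPM) in the young, 2069 and 2614 CPM in the middle, and 1750 and 1374 CPM in the old sections. From young to old all 12 neuronal genes had a positive difference in high-myelin spots (median log2 0.38). The part of this in the results for middle and old sections was not tested. Values with 1 myelin share for all sections (3.22% of UMIs) are given beside them.

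Crlf2 was scarce in the high-myelin spots of young mice and common in those of middle and old mice. The high-myelin spots held 16 Crlf2 UMIs in each of young 1 and young 2, 89 in each of middle 1 and middle 2, 86 in old 1 and 112 in old 2. As CPM of those spots this came to 5.04 and 5.39 CPM in the young, 19.9 and 22.1 CPM in the middle, and 26.1 and 31.9 CPM in the old sections. The 3 ages did not overlap, and the order ran from young through middle to old. The means were 5.22 ± 0.24 CPM at 6 months, 20.95 ± 1.55 CPM at 18 months and 29.0 ± 4.15 CPM at 21 months (SD, n = 2 each), so that old sections were 5.56-fold and middle sections 4.02-fold above young ones. The old mean lay 1.39-fold above the middle one, and old 1 (26.1 CPM) was nearer to middle 2 (22.1 CPM) than to old 2 (31.9 CPM). In the edgeR fit of section sums the log2 differences were 2.39 (SE 0.24) for old against young, 1.91 (SE 0.25) for middle against young and 0.47 (SE 0.17) for old against middle. In sums over spots, fewer cells of a type and less RNA per cell cannot be told apart.

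In all other spots the gene was present at every age and moved far less. Its level was 22.3 and 22.4 CPM in the young sections (1647 and 1670 UMIs), 26.3 and 28.9 CPM in the middle sections (1885 and 2057 UMIs), and 27.1 and 27.7 CPM in the old sections (1778 and 1592 UMIs). The young sections were again the lowest, but the middle and old ones overlapped. Means were 22.4 ± 0.04, 27.6 ± 1.86 and 27.4 ± 0.47 CPM (SD, n = 2 each), which is 1.23-fold for middle over young and 1.225-fold for old over young. The ratio of high-myelin to other spots was therefore 0.226 and 0.241 in young sections, 0.756 and 0.763 in middle sections, and 0.964 and 1.15 in old sections. In young mice the myelin-rich spots held far less Crlf2 than the rest, and in old mice they were level with it. The fit over both compartments gave a log2 difference of high-myelin to other spots of -1.94 (SE 0.21) at 6 months, -0.29 (SE 0.12) at 18 months and 0.21 (SE 0.12) at 21 months.

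**Figure D1:**
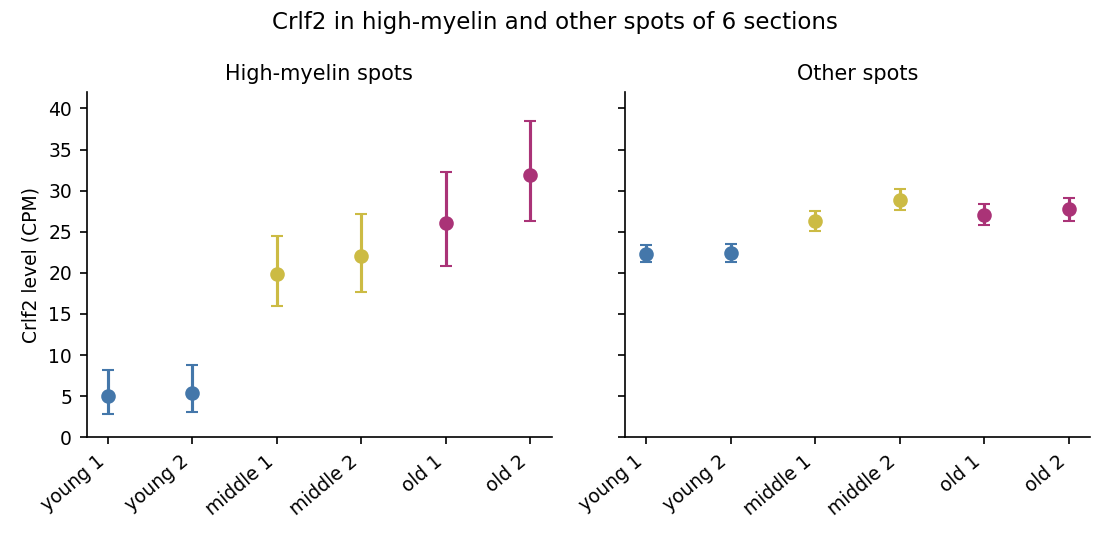
Crlf2 level (CPM, y axis) in the high-myelin spots (left) and in all other spots (right) of each section (x axis); points are sums over the spots of a section and bars are exact 95% Poisson intervals for counting error. In high-myelin spots the young sections sit at 5.04 and 5.39 CPM, below all middle and old sections, while the other spots of all 6 sections lie between 22.3 and 28.9 CPM.

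By the share of spots with a Crlf2 UMI, young sections again lay below all others, while middle and old sections overlapped. A Crlf2 UMI was found in 14 of 257 high-myelin spots of young 1 (5.45%, 95% Wilson interval 3.27 to 8.94) and in 16 of 280 of young 2 (5.71%, 3.55 to 9.08). The shares were 28.1% (23.1 to 33.7) and 27.9% (22.9 to 33.4) in middle 1 and middle 2, and 23.6% (19.1 to 28.7) and 29.7% (24.7 to 35.3) in old 1 and old 2. Most positive spots held a single UMI, and none held more than 4. High-myelin spots were shallower than the others (median 9366 to 15054 against 21458 to 32084 UMIs) and deepest in the middle sections, so the shares were also taken after thinning each spot to 5000 UMIs. Thinned, 1.63% and 1.99% of young, 10.45% and 11.4% of middle, and 14.2% and 18.15% of old high-myelin spots held Crlf2, and the 3 ages did not overlap. In the other spots the thinned shares ran from 9.66% to 13.9% and the unthinned ones from 42.8% to 54.0%. Thinning left out 6 to 29 of the high-myelin spots per section. Intervals here cover counting error only.

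The young deficit deepened with the myelin share itself. Over intervals of myelin share that were chosen after the data had been seen, Crlf2 in young sections averaged 24.2 ± 0.32 CPM in spots with up to 0.2% myelin UMIs, 19.8 ± 0.03 CPM at 1 to 2%, 13.6 ± 1.23 CPM at 2 to 3% and 9.02 ± 1.71 CPM at 4.5 to 6% (SD, n = 2). At 6 to 8% the 272 spots of both young sections together held 3 Crlf2 UMIs, or 1.02 CPM (exact 95% Poisson interval 0.211 to 2.99). Old sections showed no such slope up to 6%, with 27.0 ± 0.46 CPM at up to 0.2%, 26.4 ± 0.59 CPM at 1 to 2% and 31.0 ± 5.33 CPM at 3 to 4.5%. Middle sections averaged 27.9 ± 1.77 CPM at up to 0.2% and 28.4 ± 0.11 CPM at 2 to 3%, then 19.4 ± 2.97 CPM at 3 to 4.5% and 18.7 ± 0.15 CPM at 4.5 to 6%. At 6 to 8% the middle sections together held 14 UMIs in 67 spots, 16 of them from middle 2 (19.0 CPM, 10.4 to 31.8), and the old sections 22 UMIs in 111 spots (21.8 CPM, 13.7 to 33.0). By section these spots had 1.365 and 0.680 CPM in the young, 14.5 and 43.3 CPM in the middle and 27.0 and 13.2 CPM in the old. The intervals pool the UMIs of both sections of an age and cover counting error only, so they are no test between ages.

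**Figure D2:**
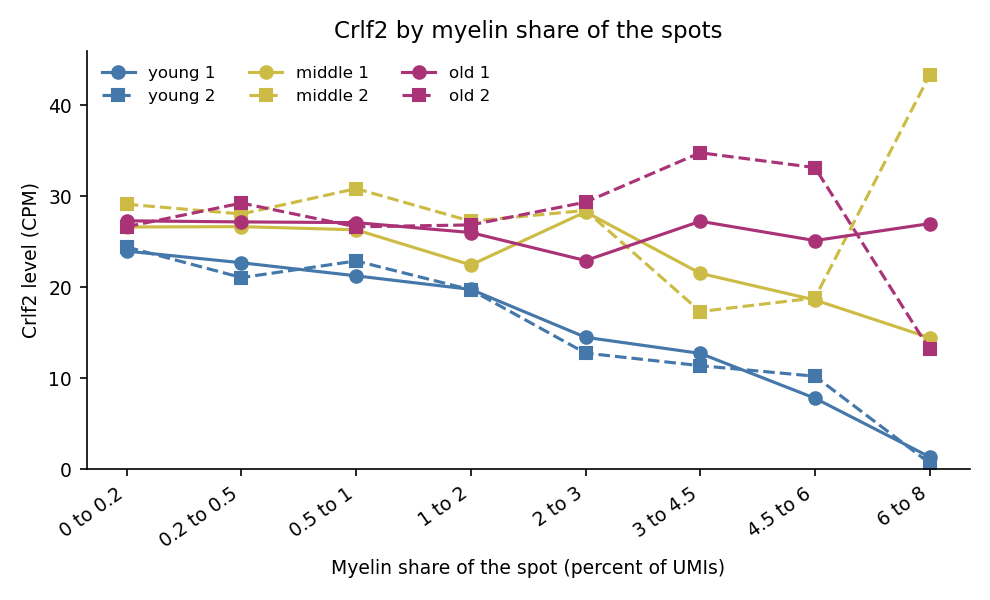
Crlf2 level (CPM, y axis) of each section in spots grouped by myelin share (percent of UMIs, x axis, unequal steps); circles and squares are replicates 1 and 2. Both young sections fall towards 1.02 CPM in the last group, and the point of middle 2 there rests on 5 UMIs in 16 spots.

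The 10% bound is arbitrary, and the size of the age difference depended on it while its direction did not. With the 5% of spots of largest myelin share, the sections held 2 and 1 Crlf2 UMIs (young), 37 and 30 (middle) and 42 and 40 (old), which is 1.32 and 0.718 CPM, 18.3 and 17.6 CPM, and 26.6 and 25.7 CPM. With 1 myelin share for all sections, young sections had 7.21 and 6.61 CPM, middle sections 19.9 and 18.1 CPM and old sections 25.8 and 32.5 CPM. The ages kept their order under both choices. Of the 25 spots just inside and the 25 just outside the bound in each section, those of the young held 3 and 3 UMIs inside and 7 and 2 outside, those of the middle 10 and 14 inside and 9 and 10 outside, and those of the old 4 and 12 inside and 8 and 15 outside. On the slide that carries both young sections, middle 1 (19.9 CPM) and old 1 (26.1 CPM) lay above both; the other slide has no young section. With slide as a term the log2 difference of old to young was 2.28 (SE 0.27).

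Crlf2 ranked between place 5790 and place 6908 by UMIs among the genes found in a section, so it is a gene of moderate to low abundance. Its place by the rise with age is a description only, because Crlf2 was chosen for that rise in these data. Among the 12748 genes tested in high-myelin spots, 32 had a larger old to young log2 difference, and 12 of these had a mean of at least 5 CPM. With a mean of at least 10 CPM, 8 genes lay above Crlf2: Cst7, Serpina3n, Lyz2, Spp1, Cd74, Lgals3, C4b and Fcgr2b, which include genes of phagocytic microglia, antigen presentation and complement.

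Clustering the spots by transcripts, with Crlf2 left out of the variable genes, gave regions that do not rest on the myelin share alone. Of 18 clusters, 14 could be named from region markers and 4, with 2023 spots, could not. Averaged over the 6 sections, Crlf2 was highest in meninges (28.8 ± 3.82 CPM) and isocortex (28.3 ± 2.71 CPM), then striatum (26.5 ± 6.58 CPM), thalamus (24.6 ± 3.56 CPM), choroid plexus and ventricle (24.5 ± 6.69 CPM), hypothalamus (23.9 ± 3.11 CPM), amygdala and olfactory cortex (23.0 ± 2.48 CPM) and hippocampal formation (22.9 ± 4.29 CPM). White matter was lowest, with 18.8 ± 10.3 CPM (SD, n = 6 sections each). Each region's mean lay within 1 SD of its neighbours in this order, white matter included, because the white matter SD contains the age difference.

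By age, the white matter cluster had 6.74 and 6.98 CPM in young, 20.6 and 20.2 CPM in middle, and 25.9 and 32.5 CPM in old sections, a mean of 6.86 ± 0.17, 20.4 ± 0.29 and 29.2 ± 4.71 CPM. Old over young was 4.26-fold there. In the 8 other named regions the same ratio ran from 1.005 in meninges and 1.15 in isocortex to 1.45 in hippocampal formation and 1.56 in striatum, where young 2 alone was low (15.2 CPM, against 24.3 CPM in young 1). In young sections white matter was last in the order and less than the next region, choroid plexus and ventricle (17.5 ± 2.75 CPM), by far more than the spread. In old sections striatum (30.9 ± 1.59 CPM), isocortex (29.8 CPM), white matter and meninges (28.4 ± 5.80 CPM) headed the order and overlapped.

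**Figure D3:**
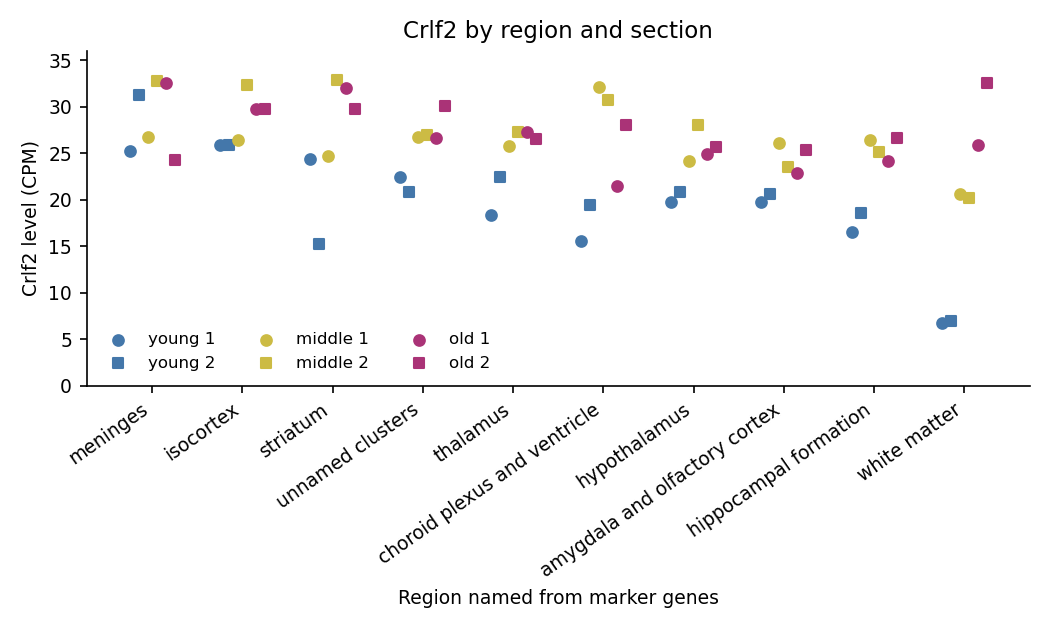
Crlf2 level (CPM, y axis) in the spots of each named region and of the unnamed clusters (x axis, ordered by the mean over sections), 1 point per section. White matter of both young sections lies below 7 CPM, and every other point in the plot lies at or above 15.2 CPM.

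Within the high-myelin spots, Crlf2 was compared between spots below and above the section's median share of a marker list. In young sections Crlf2 was 2.23 ± 0.22 CPM in the spots with fewer neuronal transcripts and 8.28 ± 0.35 CPM in those with more. These values rest on few UMIs, 4 against 12 in young 1 and 3 against 13 in young 2, and the SDs do not cover that counting error. Crlf2 in the spots with fewer and with more was 19.6 and 20.1 CPM in middle 1, and 21.05 and 22.85 CPM in middle 2. In old sections the means were 28.2 ± 7.79 and 29.7 ± 0.92 CPM, with old 1 higher (22.7 against 29.1 CPM) and old 2 lower (33.7 against 30.4 CPM) in the spots with more. Spots with more transcripts of homeostatic microglia (Cx3cr1, P2ry12, C1qa and others) had 36.1 ± 7.0 CPM in old sections, against 22.3 ± 1.44 CPM in those with fewer. For disease-associated microglia genes (Trem2, Cst7, Lgals3 and others) the old values were 35.1 ± 9.6 above and 22.8 ± 1.74 CPM below the median, and for oligodendrocyte injury and ageing genes (C4b, Serpina3n, Il33 and others) 36.3 ± 10.3 and 22.1 ± 2.30 CPM. Both old sections went in this direction for these 3 lists, old 2 by more than old 1, and in old 1 the split by injury genes had 43 Crlf2 UMIs on each side. Both middle sections also went up with disease-associated genes, from 16.2 to 23.3 CPM in middle 1 and from 18.7 to 25.4 CPM in middle 2. With homeostatic genes middle 1 went up (16.3 to 23.3 CPM) and middle 2 did not (22.2 and 21.9 CPM). For the same 3 lists the young means ran from 4.58 to 6.00 CPM on either side, and the young sections from 3.24 to 6.74 CPM. Homeostatic genes went up in young 1 (3.24 to 6.74 CPM, 5 and 11 UMIs) and down in young 2 (6.04 to 4.73 CPM, 9 and 7 UMIs). Both young sections went down with the disease-associated and the injury genes. The 3 lists mark cells that share spots, and over all ages Crlf2 was higher above the median in 4 of 6 sections for either microglia list and in 3 of 6 for the injury list. The tally was 5 of 6 for neuronal, 4 for endothelial, 3 for astrocyte, 3 for oligodendrocyte precursor genes and 1 for oligodendrocyte genes outside the myelin share.

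**Figure D4:**
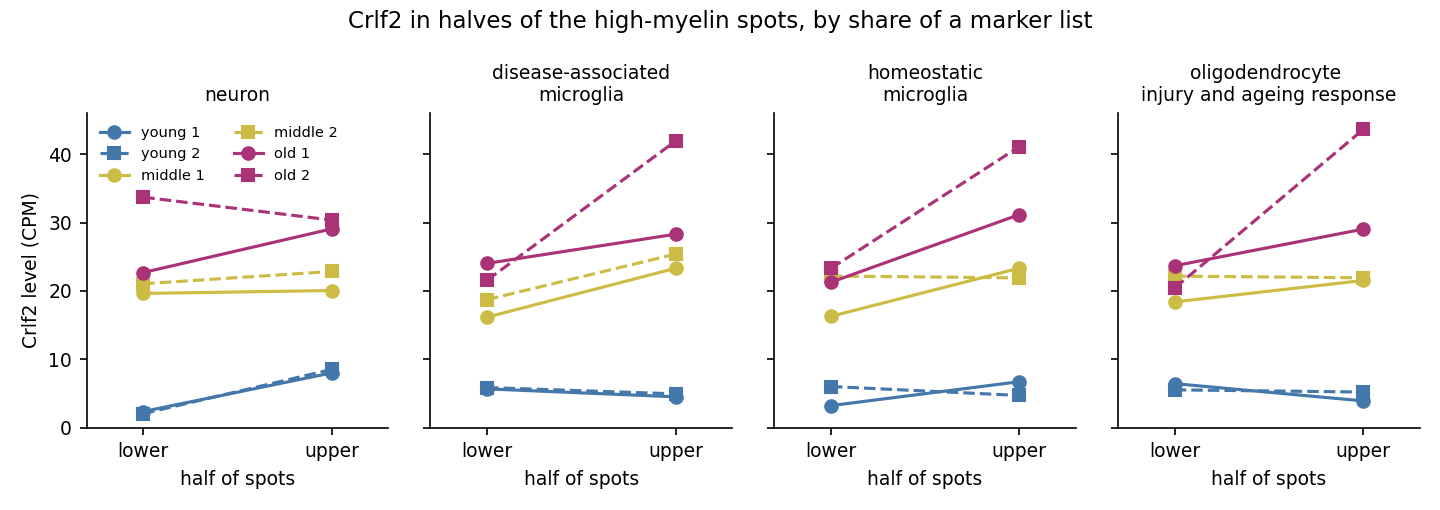
Crlf2 level (CPM, y axis) in high-myelin spots below (lower) and above (upper) the section's median share of 4 marker lists, 1 line per section. Every section except old 2 rises with neuronal genes. Middle and old sections rise with disease-associated microglia genes. The steepest lines for the 2 microglia lists and the injury list are those of old 2. All young values stay below 10 CPM.

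Markers of other cell types moved with age in the same spots. Of the homeostatic microglia genes, 9 of 16 rose from young to old in high-myelin spots and none fell, with a median log2 difference of 0.60, in a comparison that called 3.11% of genes (1.95% higher, 1.16% lower) and had a median of about 0 over all genes. Of the disease-associated microglia genes, 12 of the 15 tested rose and none fell (median 1.61), among them Trem2, a lipid receptor, by 1.61 (adjusted p = 4.9e-08) and Cst7, a cysteine protease inhibitor, by 4.64 (adjusted p = 0.000319). The summed level of that list was 1338 and 1362 CPM in young, 1726 and 1817 CPM in middle, and 2545 and 3455 CPM in old sections. Crlf2 UMIs per 1000 UMIs of the homeostatic list were 4.21 and 3.86 in young, 12.2 and 12.9 in middle, and 11.6 and 11.7 in old sections, so both old ratios lay below both middle ones, and all 4 lay above the young. In the other spots this ratio was 43.8 to 49.4 at all ages. The step from middle to old depended on the list. High-myelin ratios went from 11.5 and 12.1 to 10.25 and 9.25 for disease-associated genes, and from 48.4 and 50.25 to 64.8 and 85.3 for endothelial genes. The part of microglia in the Crlf2 result was not tested.

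In the same comparison of old with young high-myelin spots (1.95% of all genes called higher, 1.16% lower), 3 of 14 oligodendrocyte injury and ageing genes rose (C4b, H2-K1 and Apoe) and none fell. Of 20 oligodendrocyte genes outside the myelin share, 5 fell and none rose. Genes of cells known for the TSLP receptor were also looked up in high-myelin spots. Of 15 genes of dendritic cells, mast cells, basophils and innate lymphoid cells, 8 had no UMI in any high-myelin spot, among them the mast cell genes Cpa3, Mcpt4, Tpsb2, Cma1 and Ms4a2 and the dendritic cell genes Xcr1, Clec9a and Ccr7. The summed level of the 15 genes was 20.8 and 25.6 CPM in young and 20.9 and 23.4 CPM in old sections, and the 2 ages overlapped. Of 17 lymphocyte genes, 2 had no UMI (Ms4a1 and Gzma), and the summed level was 21.4 and 22.9 CPM in young, 43.7 and 47.6 CPM in middle, and 40.9 and 51.3 CPM in old sections. Only Ighm and Trbc2 of that list were abundant enough to test, and Ighm rose (log2 0.80, SE 0.19, adjusted p = 0.0187). In the other spots the list was higher in every section, at 53.9 to 71.2 CPM, and Ighm alone had 25.7 to 35.8 CPM. Trbc2 and Ighm were also the 2 leading genes of an unnamed cluster of 1177 spots, followed by Ccn2, Vxn and Rprm. Which cells carried Ighm and Trbc2 in the high-myelin spots was not determined, and the part of lymphocytes was not tested.

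The known partners of Crlf2 were barely detected. Il7r, the second chain of the TSLP receptor, had 0 and 1 UMIs in the high-myelin spots of young 1 and 2, 3 and 2 in middle 1 and 2, and 3 and 1 in old 1 and 2, and 82 UMIs over all spots of all sections. Tslp, the ligand, had 2 UMIs in high-myelin spots, both in middle 2, and 118 in all. Il7, the other ligand that uses the Il7r chain, had 1 and 51 UMIs, and Il2rg, the common gamma chain that pairs with Il7r for IL-7, had 25 and 203. Il2rg had 2 and 1 UMIs in young, 3 and 7 in middle, and 4 and 8 in old high-myelin spots. The summed level of the 4 genes there was 0.630 and 0.673 CPM in young, 1.34 and 2.73 CPM in middle, and 2.43 and 2.57 CPM in old sections, with the young sections lowest. By comparison Crlf2 had 408 UMIs in high-myelin spots and 11037 in all. None of these 4 genes passed the filter on low counts in high-myelin spots, so no test of them was made there. In the other spots, where 0.119% of 17576 genes were called between old and young by edgeR, Tslp (adjusted p = 0.523), Il7r (0.994) and Il2rg (0.756) could be tested and were not.

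Few genes of the signalling chain passed the test, and most had small positive differences. Of 20 JAK-STAT and feedback genes, 17 were tested in high-myelin spots, and 2 rose from young to old while none fell, where 1.95% of all genes were called higher and 1.16% lower. The median log2 difference was 0.21, with 13 of the 17 above 0, against about 0 over all genes. Jak2 had 41.0 and 39.4 CPM in young and 43.4 and 42.8 CPM in old sections, and Stat5b had 17.0 and 17.8 CPM against 19.4 and 19.1 CPM. Stat3, a transcription factor downstream of gp130 cytokines, had 48.9 and 41.1 CPM in young, 52.7 and 45.8 CPM in middle, and 71.9 and 71.9 CPM in old sections. It rose by 0.59 from young to old (SE 0.14, adjusted p = 0.0187) and by 0.54 from middle to old (SE 0.13, adjusted p = 0.0428), the latter in a comparison that called 1.14% of genes (0.494% higher, 0.643% lower). The first call was lost in 5 of 17 alternatives, with DESeq2 (0.206), with 20% of spots (0.0808) and without young 2 (0.160), old 1 (0.114) or old 2 (0.115), and the second in 7 of 17, among them DESeq2 (0.249), the common myelin share (0.328) and the fits without middle 2 (0.349), old 1 (0.160) or old 2 (0.421).

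Ptpn6, the phosphatase SHP-1 of blood-derived cells and microglia, had 6.62 and 7.07 CPM in young, 11.4 and 9.66 CPM in middle, and 12.1 and 16.8 CPM in old sections. It rose by 1.00 from young to old (SE 0.28, adjusted p = 0.0478), a call that was lost in 10 of 17 alternatives, among them without any 1 of the young or old sections (0.0544 to 0.406) and with DESeq2 (0.478). Socs3, a feedback inhibitor that is also on the injury list, had 8 and 4 UMIs in young and 15 and 22 in old sections, and its difference of 1.37 (SE 0.51) did not pass (adjusted p = 0.167). In the comparison of middle with young no gene of this list was called, with 10.6% of all genes called (6.09% higher, 4.49% lower).

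Of 20 genes described as targets of TSLP in immune cells, 10 had too few UMIs to test, 3 of them with none (Tnfsf4, Ccr7 and Il13), and the median of the 10 tested was 0.16. Cd86, a costimulatory molecule of antigen-presenting cells, had 3.15 and 2.69 CPM in young, 7.36 and 5.45 CPM in middle, and 8.49 and 8.84 CPM in old sections. The young sections lay below all others. It rose by 1.47 (SE 0.38, adjusted p = 0.0319), a call lost in 8 of 16 alternatives, among them without any 1 of the young or old sections (0.0963 to 0.170) and with DESeq2 (0.337). Bcl2l1, which encodes the survival protein Bcl-xL and was higher in high-myelin than in other spots at every age, went the other way, with 132 and 168 CPM in young, 96.2 and 107 CPM in middle, and 102 and 125 CPM in old sections. It fell by 0.64 from young to middle (SE 0.12, adjusted p = 0.00111) and by 0.48 from young to old (SE 0.12, adjusted p = 0.0266). The second call was lost in 6 of 17 alternatives, among them without young 2 (0.242) or old 1 (0.336), the first only with the stricter common myelin share (0.0730).

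Crlf2 belongs to the type I cytokine receptor family, of which 35 other members were looked up. In high-myelin spots 5 had no UMI (Il5ra, Il9r, Il13ra2, Il23r and Il27ra), 18 were tested, and 2 of these rose from young to old and none fell, where 1.95% of all genes were called higher and 1.16% lower. Their median log2 difference was 0.53, against about 0 over all genes. Osmr, the receptor chain for oncostatin M, had 2.21 and 2.36 CPM in young, 7.36 and 4.21 CPM in middle, and 13.04 and 14.3 CPM in old sections. The 3 ages did not overlap, and outside the high-myelin spots all 6 sections lay between 1.98 and 2.79 CPM. Osmr rose by 2.48 from young to old (SE 0.38, adjusted p = 0.00031), a call kept in all 16 alternatives that could be run (largest adjusted p 0.00561). From middle to old it rose by 1.22 (SE 0.29, adjusted p = 0.0409), which was lost in 8 of 15 alternatives, up to 0.497 without old 2.

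Csf3r, the receptor of granulocyte colony-stimulating factor, had 5.36 and 6.73 CPM in young, 9.59 and 8.67 CPM in middle, and 11.8 and 14.5 CPM in old sections and rose by 1.04 (SE 0.28, adjusted p = 0.0441), which was lost in 8 of 17 alternatives, among them without any 1 of the young or old sections (0.0702 to 0.308). Csf2rb, the shared beta chain of the IL-3, IL-5 and GM-CSF receptors, had 2 and 2 UMIs in young and 10 and 15 in old sections and missed the threshold (2.35, SE 0.70, adjusted p = 0.0692). The 6 members with the highest levels in high-myelin spots were not called between young and old. Cntfr had 74.4 and 64.6 CPM in young and 57.6 and 55.6 CPM in old sections, and Il6st, which encodes gp130, had 56.7 and 54.9 CPM against 64.0 and 69.0 CPM. Lifr, Il11ra1, Crlf3 and Csf2ra had log2 differences of -0.21, 0.29, -0.09 and 0.66 (adjusted p = 0.529, 0.412, 0.898 and 0.171).

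**Figure D5:**
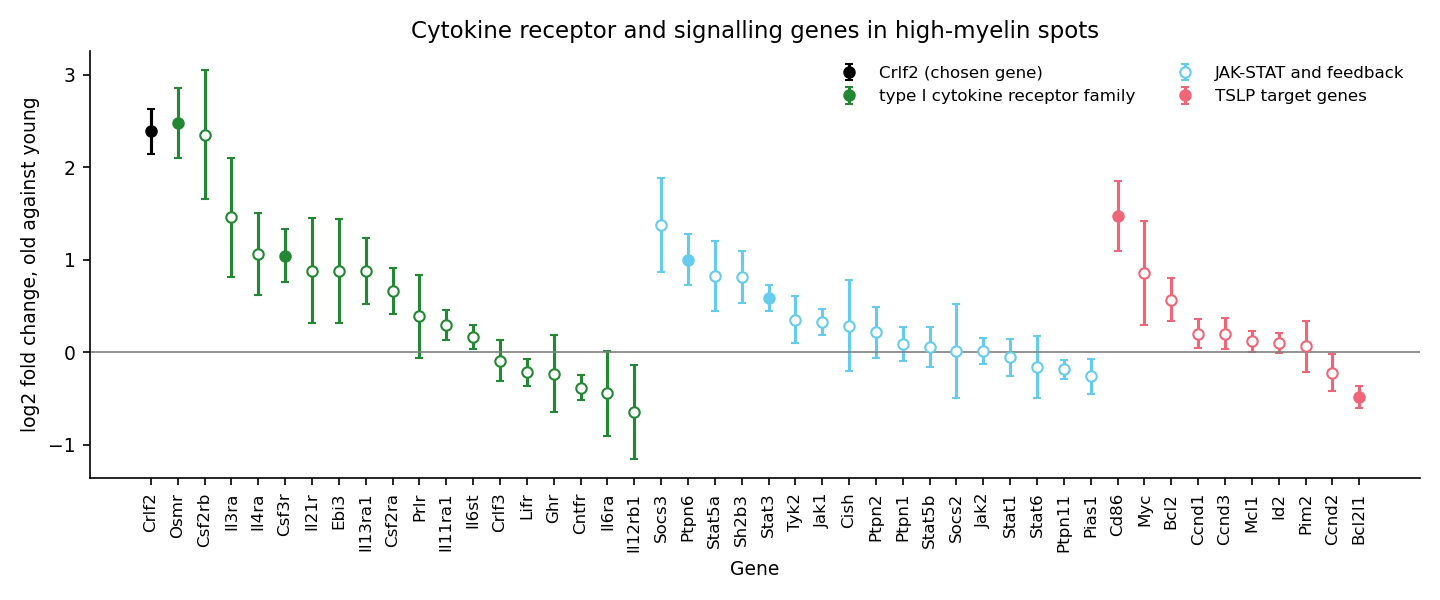
Log2 difference of old to young sections in high-myelin spots (y axis) with its SE (bars) for Crlf2 and for every tested gene of 3 lists (x axis). Filled symbols mark an adjusted p under 0.05 in the edgeR fit, except that Crlf2 is drawn without a test; Osmr (2.48) is the called gene nearest to Crlf2 (2.39).

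Whether these genes changed differently inside and outside the high-myelin spots was tested as an interaction. For old against young, which called 2.27% of 16991 genes (1.38% higher, 0.895% lower), the family had 1 higher call among 27 tested (Osmr, 2.42, SE 0.45, adjusted p = 0.000873, kept in all 13 alternatives), the TSLP target list 1 lower call among 14 (Bcl2l1, -0.47), and the JAK-STAT list none among 20. For middle against young, which called 8.59% of genes (5.52% higher, 3.07% lower), Jak1 (0.41), Socs2 (1.43) and Pim2 (0.81) were higher and Bcl2l1 (-0.60) lower. The first 3 of these were lost with 1 myelin share for all sections (adjusted p = 0.520, 0.334 and 0.809), and Bcl2l1 was kept (0.000466). Between compartments, 15 of 27 family genes were higher and 4 lower in high-myelin than in other spots, against 8 and 7 of 20 JAK-STAT genes, where 34.4% of all genes were called higher and 39.2% lower. The log2 difference was 1.04 (SE 0.06) for Stat3 and -0.70 (SE 0.05) for Jak1.

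The genes whose levels were most like those of Crlf2 over the 12 sums of section and compartment were Prkab1, Lypd6b, Usp35, Ighm, Pyroxd1, Pgm1, Lrba, Ntpcr, Arhgef6 and Txnrd2, with Pearson r of log2(CPM + 1) from 0.958 down to 0.933 among 11124 genes with a mean of at least 5 CPM in high-myelin spots. The 12 sums share sections and depth, and no p was computed. All 10 were lowest in the high-myelin spots of young sections. The choice by likeness favours this, since Crlf2 itself was lowest there, so it is no separate result. The range of the 10 genes was smaller than that of Crlf2. Prkab1, a subunit of the AMP-activated kinase, had 7.88 and 7.74 CPM in young, 11.4 and 11.4 CPM in middle, and 12.4 and 12.6 CPM in old high-myelin spots, and 11.6 to 14.3 CPM elsewhere. Their old to young log2 differences in high-myelin spots ran from 0.42 (Pgm1) to 0.92 (Lypd6b), against 2.39 for Crlf2.

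High-myelin spots with a Crlf2 UMI were compared with those without one in each section. Positive spots were deeper in all 6 sections (median 13218 to 19658 against 8965 to 14237 UMIs) and had a lower myelin share in all 6 (5.06% against 5.81% in young 1, and 3.64% against 4.19% in middle 2). Of 6542 genes with a mean of at least 20 CPM, 168 (2.57%) were higher and 134 (2.05%) lower in positive spots of every section. Among the 10 largest mean log2 ratios of (CPM + 1) were those of Acta2 (0.77 ± 0.76), an actin of smooth muscle, and Slc5a3 (0.70 ± 0.31), an inositol transporter, each SD over 6 sections. Others were Sipa1l1 (0.61), Sfxn3 (0.52), Dpp7 (0.52), Gtf2f2 (0.51), Fabp3 (0.50), Fcrls (0.50), a microglia gene, and Col9a3 (0.50). The lowest were Unc13c (-0.83 ± 0.44), a presynaptic priming factor, Ccdc13 (-0.72), Micu2 (-0.67), Zfp512 (-0.56) and Dipk2a (-0.53).

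Most of these differences were small and varied between sections, and the young sections had 14 and 16 positive spots. For Acta2 the ratio ran from 0.20 in old 2 to 2.23 in young 2. Fcrls had 46.7 CPM in positive and 38.1 CPM in negative spots of old 1, and 76.9 and 50.8 CPM in old 2. By lists, oligodendrocyte genes outside the myelin share and oligodendrocyte precursor genes were lower in positive spots of all 6 sections, by -0.12 ± 0.08 and -0.11 ± 0.12 on the log2 scale. Fibroblast genes were higher in all 6 (0.43 ± 0.65), disease-associated microglia genes in 5 (0.17 ± 0.27), neuronal genes in 5 (0.35 ± 0.42) and homeostatic microglia genes in 3 (0.07 ± 0.31). The list of mural cells of vessels, which includes Acta2, was higher in 4 (0.18 ± 0.51) and lower in middle 1 (-0.63) and old 1 (-0.09). Dendritic, mast, basophil and innate lymphoid genes were higher in 1 of 6. The part of depth in these ratios was not tested.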

How the data were processed

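The authors deposited 1 matrix of raw UMI counts per gene and spot for each section. Per the file headers it comes from Space Ranger 1.3.1, while the submitters' processing notes list Space Ranger 3.1 and build mm10. The other deposited tables hold spot barcodes and gene identifiers with symbols. The annotation and the spot filter are not given in the sources used here, and tissue images were not used here.

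Spots under 500 UMIs were left out (1 each in middle 2 and old 2). Myelin share used 10 myelin genes, among them Mbp, Mag, Mog and Cnp. UMI counts were summed per section and compartment, so the section is the replicate. The test was the two-sided quasi-likelihood test of edgeR 4.0.16 with robust dispersions, TMM factors, filterByExpr and age alone as term (Benjamini-Hochberg adjusted p under 0.05). Both compartments were fitted together with section as block and an interaction with age. The code was tested on simulated data. CPM divides by the UMIs of the summed spots. Regions came from Leiden clusters (resolution 0.8, 30 principal components, 20 neighbours), named from markers; Crlf2, the microglia and injury lists, Gfap and Vim were kept out of clustering. Doublets do not apply to spots.

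Crlf2, the gene lists and the comparisons were chosen with earlier results of these data known. Named genes were the receptor partners and ligands, list genes that passed a test, the 6 family genes of highest CPM, the 10 of highest r, and the 10 highest and 5 lowest ratios in Crlf2-positive spots of the same sign in all sections; an item that the rule would name is not reported here. Alternatives were DESeq2 1.42.0, RLE factors, other count filters, slide or replicate number as a term, other choices of spots, thinning, and leaving out each section; the stricter common share (5.25%) and TMM factors for the compartment difference were added after seeing the data.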

Additional observations from a re-analysis of the deposited data

Results flagged for a closer look

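For 5 genes of the cytokine lists, the age difference inside high-myelin spots differed from that in the other spots by the interaction test of edgeR. From young to old these were 1 of 27 receptor family genes, 1 of 14 TSLP target genes and 0 of 20 JAK-STAT genes, with 2.27% of all genes called. From young to middle they were 0 of 27, 2 of 14 and 2 of 20, with 8.59% of all genes called. Osmr changed by 2.42 more in high-myelin than in other spots from young to old (log2 scale, SE 0.45, adjusted p = 0.000873), with the old sections above all young ones inside and no separation of the ages outside. Bcl2l1 differed by -0.47 from young to old (SE 0.11, adjusted p = 0.0117) and by -0.60 from young to middle (SE 0.11, adjusted p = 0.000132), with no alternative ending the second of these calls. The first ended in 5 of 15 alternatives, among them without young 2 (0.315) or old 1 (0.299). By the same test, 19 of 20 oligodendrocyte genes outside the myelin share were called lower from young to middle and 7 from young to old. None was called higher, and 3.07% and 0.895% of all genes were called lower. Whether Bcl2l1 shares in that shift was not tested. From young to middle, Jak1 differed by 0.41 (SE 0.13, adjusted p = 0.0393), Socs2 by 1.43 (SE 0.38, adjusted p = 0.0108) and Pim2 by 0.81 (SE 0.24, adjusted p = 0.0232). These 3 calls ended with 1 myelin share for all sections, where the log2 differences were 0.26, 0.94 and 0.30. Jak1 ended in 9 of 15 alternatives, Socs2 in 6 of 14 and Pim2 in 7 of 15. Jak1 ended without young 1 (0.0905), young 2 (0.163) or middle 2 (0.131), Socs2 without young 2 (0.0965) and Pim2 without young 1 (0.264).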

How the results depend on the processing

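Crlf2 kept its direction in high-myelin spots under every alternative run, and its size followed the choice of spots. The log2 difference of old to young was 3.03 in thinned spots, 4.49 with 5% of spots (3 young UMIs), 1.21 with 20%, 2.02 with 1 myelin share for all sections, 2.03 with white matter clusters and 2.74 with the stricter share. For middle to young these were 2.34, 3.98, 1.00, 1.45, 1.52 and 2.36. Old to middle was 0.69 thinned and 0.21 with 20% of spots. Leaving out 1 section, which assumes that the lone section of that age varies like the others, gave 2.24 to 2.51, 1.86 to 1.99 and 0.32 to 0.60. The difference of high-myelin to other spots, averaged over sections, was -0.81, and -1.73 with 5%, -0.43 with 20%, -0.69 with clusters, -1.16 with the stricter share, -0.68 with TMM factors and -1.01 to -0.54 without 1 section.

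Counts of called genes moved more. Old against young in high-myelin spots gave 397 genes, and 153 with DESeq2, 698 without a count filter, 175 with slide as a term, 259 with 5%, 151 with 20%, 238 with the stricter share and 143 to 543 without 1 section (143 without old 2, 197 without old 1, 263 without young 1). Middle against young gave 1348, and 563 with DESeq2, 789 with slide, 355 with 5%, 192 with 20%, 106 with the common share, 449 with clusters, 65 with the stricter share and 626 to 1402 without 1 section (626 without middle 2, 897 without young 1). Old against middle gave 145, and 56 with DESeq2, 420 without a filter, 31 with 5%, 9 with 20%, 21 with the common share, 68 with clusters, 25 with the stricter share and 5 to 338 without 1 section (5 without old 2, 22 without middle 2, 294 and 310 without young 1 or 2, 338 without middle 1). In other spots old against young gave 21, and 109 with DESeq2, 67 without a filter, 6 with slide and 3 to 105 without 1 section (3 without old 2, 7 without old 1, 10 without middle 1 or middle 2, 39 without young 1, 105 without young 2). The interaction of old against young gave 386, and 182 with DESeq2, 39 with 20% and 235 to 722 without 1 section (235 without old 1, 245 and 249 without young 1 or 2, 722 and 675 without middle 1 or 2). That of middle against young gave 1460, and 887 with DESeq2, 464 with 5%, 450 with 20%, 247 with the common share, 663 with clusters, 95 with the stricter share and 962 (without young 2) to 1693. Higher calls were 35 of 56 with DESeq2 against 63 of 145 for old against middle, and 90 of 182 against 234 of 386 for the interaction of old against young. The choice of spots turned them further: old against middle gave 19 of 21 with the common share, 9 of 9 with 20% and 25 of 31 with 5%. Middle against young gave 66 of 192 with 20%, against 776 of 1348. The interaction of middle against young gave 101 of 247 with the common share and 22 of 95 with the stricter one, against 938 of 1460, and that of old against young 107 of 299 with the stricter share. The compartment comparison, 12499 genes, gave 11716 to 12185 without 1 section. Pim2 reversed to -0.36 with the stricter share. The cause of these shifts was not tested.

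Same-numbered sections correlated between -0.10 and 0.28 in their deviations from the group means, not all over 0.1. For middle and old sections the number is also the slide, and their correlation was 0.04 in high-myelin and 0.28 in other spots. With the replicate block Crlf2 gave 2.38, 1.92 and 0.47, and the counts were 406, 1403, 168 and 16. At 16 young UMIs per section, counting error alone spans 2.88 to 8.75 CPM, and the receptor partners had too few UMIs in high-myelin spots to pass the count filter.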
